A study of Mus musculus with 25 samples.

Results

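The miR-26 family of the mouse is made from 3 hairpin precursors, mmu-mir-26a-1, mmu-mir-26a-2 and mmu-mir-26b, which were taken by name from a table of 1193 precursors. All 3 passed the filter on low counts that left 425 precursors for testing. The libraries held small RNA of brain hemispheres. The mice were males of the C57BL/6 inbred strain aged 2, 9, 15, 24 or 30 months, and each age had 5 libraries from separately numbered animals. The labels give no treatment or genetic change in any group. The mix of sequencing lanes differed between ages, since lane 8 held a library of 30 months and none of 2 months, and lane 4 the reverse. CPM stands for a read count scaled to a common library size, and both arms of a hairpin share 1 count.

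Each miR-26 hairpin lies in an intron of a gene for a small phosphatase that acts on the C-terminal domain of RNA polymerase II. These phosphatases work with REST, the repressor that keeps neuronal genes silent outside neurons. In zebrafish, miR-26b is known to repress the transcript of its own host gene during neuron formation. In mammalian cells miR-26 is known to repress Ezh2, a histone methyltransferase.

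The mature sequences of the 5′ arm are shown first because they decide which precursors can be counted apart. The sequences are those of RefSeq on GRCm38.p6, all 3 precursors were matched, and the capitals mark the seed, bases 2 to 8, which pairs with target messages.
miR-26a-5p: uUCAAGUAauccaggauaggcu
miR-26b-5p: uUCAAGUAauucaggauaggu
The seed is the same in both, and no other mature mouse miRNA among the 1738 entries of the table carries it. Counted from the 5′ end of miR-26a-5p, miR-26b-5p differs over the 21 bases that both have by C11U and C21U. The first of these lies outside the seed, in the middle of the molecule.

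The 3 hairpins are shown next, with the mature 5′ arm in capitals, because mir-26a-1 and mir-26a-2 give the same 22-base miRNA from different surroundings.
mir-26a-1: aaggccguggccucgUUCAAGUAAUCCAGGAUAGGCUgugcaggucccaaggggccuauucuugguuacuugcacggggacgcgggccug
mir-26a-2: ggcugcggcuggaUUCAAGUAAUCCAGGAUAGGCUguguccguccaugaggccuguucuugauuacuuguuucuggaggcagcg
mir-26b: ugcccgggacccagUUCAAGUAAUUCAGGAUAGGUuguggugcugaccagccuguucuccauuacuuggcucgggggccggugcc
In GRCm38, mir-26a-1 lies at chr9:119031796-119031885 in an intron of Ctdspl, mir-26a-2 at chr10:126995530-126995613 in an intron of Ctdsp2, and mir-26b at chr1:74394310-74394394 in an intron of Ctdsp1. All 3 hairpins and their host genes are on the plus strand, and in GENCODE M21 the hairpins were intronic in each of the 3, 1 and 2 host transcripts that span them. The 3′ arms differ more than the 5′ arms, by 6 of 22 bases between mir-26a-1 and mir-26a-2.

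Library totals ran from 3.78 to 9.52 M reads (median 5.61 M). The libraries were spread over 6 sequencing lanes, and the 5 libraries of lane 3, 1 of each age, were known from an earlier analysis to stand apart. mir-26b lay between 3389.6 and 3858 CPM in lane 3 and between 2688 and 3656 CPM in the other 20 libraries. The summed mir-26a copies lay between 53684 and 59229 CPM in lane 3 and between 44176 and 61726 CPM elsewhere. Markers of the labelled tissue were present, since the neuron-enriched mir-124-1 averaged 2672 CPM at 30 months and 2491 CPM at 2 months, while the liver miRNA mir-122 averaged 1.41 CPM at 30 months and 1.73 CPM at 2 months. Of the muscle miRNAs listed as markers of other tissues, mir-133a-1 averaged 123 CPM at 30 months and 99.3 CPM at 2 months and passed (0.31, edgeR adjusted p = 0.00278), and mir-1a-1, mir-1a-2 and mir-206 averaged under 4 CPM at both ages.

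miR-26a was among the most abundant brain miRNAs, and mir-26b was a minor member of the family at every age. mir-26a-1 averaged 26413 CPM and mir-26a-2 26414 CPM over all libraries, and each ranked between 7 and 10 among the 425 tested precursors in every library. mir-26b averaged 3281 CPM and ranked between 52 and 60. The 3 precursors together held 4.86% to 6.36% of all reads in a library. There were 14.1 to 19.2 reads of mir-26a, from both copies, for each read of mir-26b.

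The reads of the mir-26a copies were divided almost evenly. The share of mir-26a-1 in the reads of both copies lay between 49.7% and 50.2% over the 25 libraries, with 91043 to 275999 reads per copy and library. Its exact 95% interval (Clopper-Pearson, counting error only, since PCR reads without molecular identifiers are not separate molecules) held 50% in 24 of the 25 libraries. The ratio of mir-26a-1 to mir-26a-2 averaged 1.0004 ± 0.0028 at 30 months and 0.9962 ± 0.0075 at 2 months (SD, n = 5 each). The log2 ratios differed by 0.0062 (95% interval -0.0071 to 0.0175, exact two-sided permutation test, p = 0.262, adjusted p = 0.349 over 4 ratios). Since the 5′ arms are identical, these counts and the test of their ratio do not tell the Ctdspl locus from the Ctdsp2 locus. The values of the copies are read as 1 measurement.

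mir-26b was higher in the oldest than in the youngest mice, and it was the only precursor of the family to pass that test. The 5 libraries at 30 months had 2979, 3464, 3486, 3515 and 3858 CPM, and the 5 at 2 months had 3389.6, 2803, 2688, 2793 and 2936 CPM. At 30 months 4 of 5 libraries lay above the highest library of 2 months, and at 2 months 4 of 5 lay below the lowest of 30 months. The overlap came from the lowest library of 30 months, which was run in lane 5, and the highest of 2 months, which was run in lane 3. The means were 3460.4 ± 314 CPM at 30 months and 2922 ± 276 CPM at 2 months (SD, n = 5 each). The log2 fold change was 0.24 ± 0.08 (SE, 95% interval 0.09 to 0.40, edgeR quasi-likelihood test, adjusted p = 0.0143). Of all tested precursors, 36.9% passed this test in either direction and 19.1% were higher at 30 months, so 1 of 3 members passing is near the background. In bulk tissue, fewer cells of a type and less RNA per cell cannot be told apart. Upper-quartile scaling gave 50 higher and 91 lower precursors, against 81 and 76 with the scaling used here, and under it mir-26b was not called (0.17, adjusted p = 0.179).

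The call of mir-26b also depended on single libraries. Refits that left out replicate 5 of 30 months (0.16, edgeR adjusted p = 0.0792), replicate 2 of 2 months (0.19, adjusted p = 0.0557) or replicate 3 of 2 months (0.18, adjusted p = 0.0635) ended it. It was kept in the other 22 refits without 1 library, and over all 25 the log2 fold change lay between 0.16 and 0.26. Without lane 3 it was 0.23 (adjusted p = 0.0121), and with lane as a covariate 0.26 (adjusted p = 8.51e-05).

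mir-26a did not pass between 30 and 2 months. mir-26a-1 had 24122, 27201, 30891, 27963 and 29113 CPM at 30 months and 27726, 26808, 22006, 23521 and 26359 CPM at 2 months. The groups overlapped, with 3 of 5 libraries at 30 months above the highest of 2 months. The means were 27858 ± 2509 CPM at 30 months and 25284 ± 2413 CPM at 2 months (SD, n = 5 each), a log2 fold change of 0.14 ± 0.07 (SE, 95% interval -0.01 to 0.29, edgeR adjusted p = 0.121). mir-26a-2 had 24026, 27226, 30835, 27944 and 29216 CPM at 30 months and 27688, 27011, 22169.9, 23807 and 26194 CPM at 2 months. Its log2 fold change was 0.13 ± 0.07 (95% interval -0.01 to 0.28, adjusted p = 0.134). Upper-quartile scaling lowered these to 0.068 for mir-26a-1 (adjusted p = 0.614) and 0.063 for mir-26a-2 (adjusted p = 0.646), and the lowest refits without 1 library gave 0.063 and 0.058. The intervals hold no change as well as a rise of the size seen for mir-26b.

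**Figure D1:**
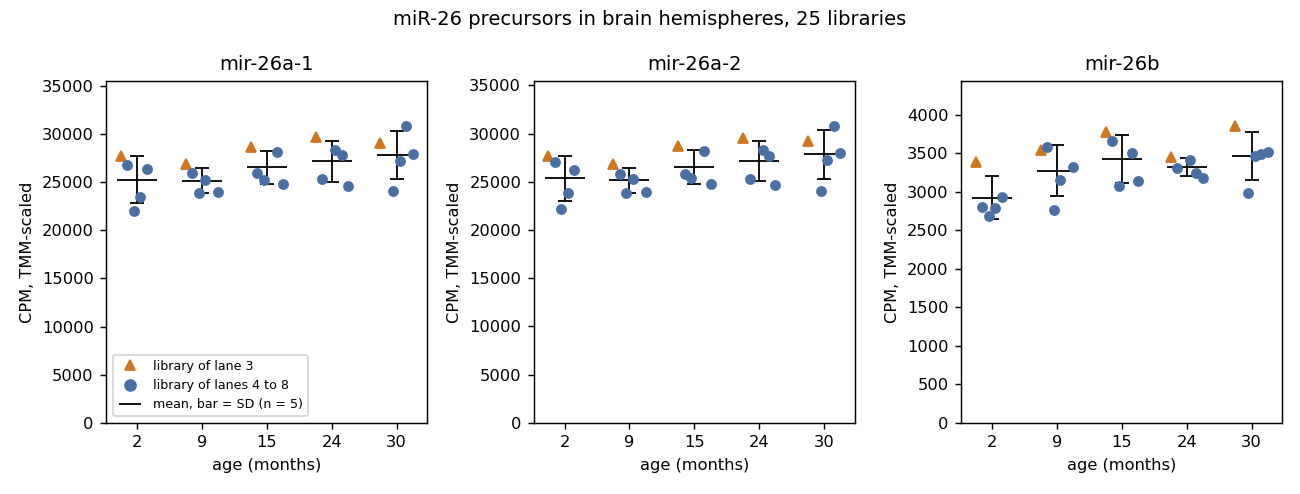
TMM-scaled CPM (y axis, from 0) of the 3 miR-26 precursors against age in months, with 1 point per library, triangles for lane 3, and the mean with SD of 5 libraries. The lane 3 triangle is the highest library of mir-26b at 2 months (3389.6 CPM) and at 30 months (3858 CPM), and the panels of the mir-26a copies look alike.

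Since the copies give 1 miRNA, they were also summed to 1 row. The summed mir-26a had 48147, 54426, 61726, 55907 and 58329 CPM at 30 months and 55414, 53819, 44176, 47328 and 52553 CPM at 2 months. Its means were 55707 ± 5048 CPM at 30 months and 50658 ± 4725 CPM at 2 months (SD, n = 5 each). The fit across all precursors gave a log2 fold change of 0.10 ± 0.07 (SE, 95% interval -0.03 to 0.24, edgeR adjusted p = 0.242). With all 3 precursors in 1 row the family averaged 59168 ± 5292 CPM at 30 months and 53579.7 ± 4931 CPM at 2 months (0.12 ± 0.06, adjusted p = 0.163). Each summed table took another library as the reference of the scaling than the table of separate rows. The CPM above use the factors of the table of separate rows. With these factors the summed mir-26a lay at 0.14 (edgeR adjusted p = 0.131) and the summed family at 0.14 (adjusted p = 0.112).

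**Figure D2:**
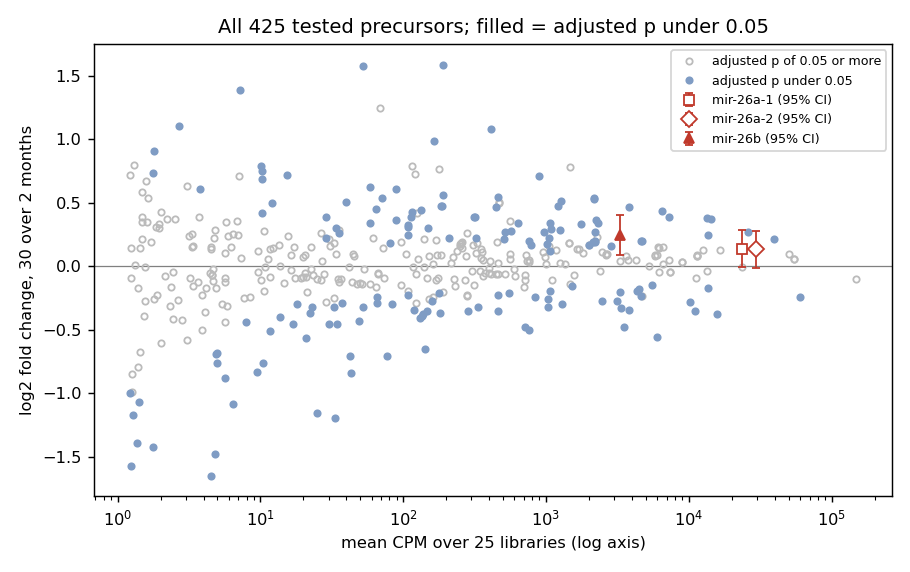
Log2 fold change of 30 over 2 months (y axis) against mean CPM over 25 libraries (log x axis) for all 425 tested precursors, filled where the adjusted p was under 0.05, with the miR-26 precursors in red with 95% intervals and the mir-26a copies moved apart sideways to be seen. mir-26b is filled at 0.24, and both mir-26a copies are open at 0.14 and 0.13.

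Within a lane, each of the 3 precursors was higher at 30 months than at 2 months in all 4 lanes that held both ages. The within-lane log2 differences of mir-26b were 0.19 in lane 3, 0.15 in lane 5, 0.31 in lane 6 and 0.25 in lane 7. Those of the summed mir-26a were 0.07, 0.12, 0.20 and 0.23 in the same lanes. The differences were not tested apart from the fit with lane as a covariate. Among lanes, the summed mir-26a averaged 47679 CPM in lane 5, 56531 CPM in lane 7 and 56805 CPM in lane 3. With lane as a covariate in the edgeR fit over all 25 libraries, mir-26a-1 (0.16, adjusted p = 0.00920), mir-26a-2 (0.15, adjusted p = 0.0123) and the summed copies (0.12, adjusted p = 0.0381) passed.

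**Figure D3:**
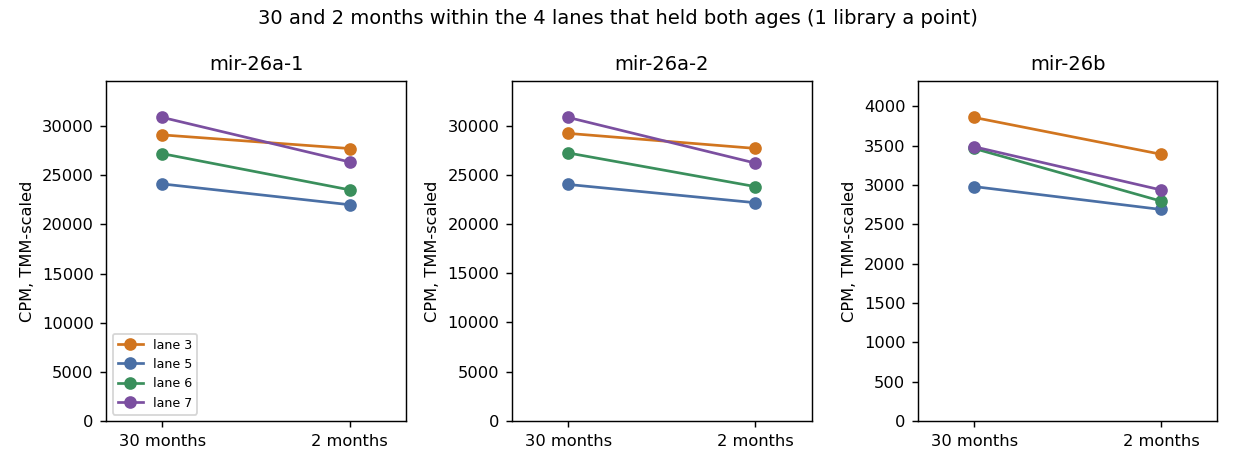
CPM (y axis, from 0) of each miR-26 precursor at 30 and 2 months in the 4 sequencing lanes that held a library of both ages, with 1 line per lane. Every line is higher at 30 months, and for mir-26b the differences run from 0.15 in lane 5 to 0.31 in lane 6 on the log2 scale.

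Across the 5 ages the levels of mir-26b were lowest at 2 months and lay close together from 9 months on. The means were 2922 ± 276 CPM at 2 months, 3273 ± 331 at 9 months, 3429.7 ± 311 at 15 months, 3320.04 ± 113 at 24 months and 3460.4 ± 314 at 30 months (SD, n = 5 each). In order of level the ages ran 2, 9, 24, 15 and 30 months, and each step in that order was smaller than the SD of at least 1 of its groups, apart from the first, of 2 to 9 months. At 9 months the libraries had 3326, 3542, 3576, 2767 and 3153 CPM, of which 2 lay above the highest of 2 months. The step of 9 over 2 months was 0.16 ± 0.08 on the log2 scale (SE, edgeR adjusted p = 0.197). Of all precursors 7.76% passed there, 1.88% higher and 5.88% lower at 9 months.

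The 15-month libraries of mir-26b had 3506, 3143, 3772, 3656 and 3071 CPM, and the 24-month libraries 3411, 3249, 3177, 3452 and 3312 CPM. The 24-month group was the narrowest. The steps were 0.07 ± 0.08 for 15 over 9 months, -0.05 ± 0.08 for 24 over 15 months and 0.06 ± 0.08 for 30 over 24 months (SE, edgeR adjusted p from 0.697 to 0.998). Of all precursors 0% passed from 9 to 15 months, 0.235% from 15 to 24 months and 8.71% from 24 to 30 months, of which 6.12% were higher and 2.59% lower at 30 months. For the 0 calls from 9 to 15 months, 27 precursors had an unadjusted p under 0.05 with edgeR, and DESeq2 called 2. No miR-26 precursor passed any of the 4 steps between neighbouring ages with edgeR or with DESeq2, and only mir-26b from 2 to 9 months had an unadjusted p under 0.05. With lane as a covariate that step passed (0.17, adjusted p = 0.0163), and it also passed without 9-month replicate 4 (0.22, adjusted p = 0.0344).

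The means of the summed mir-26a were nearly equal at 2 and 9 months and higher at each later age, with overlapping libraries. They were 50658 ± 4725 CPM at 2 months, 50331 ± 2527 at 9 months, 53138 ± 3479 at 15 months, 54299 ± 4159.9 at 24 months and 55707 ± 5048 at 30 months (SD, n = 5 each). Each step between neighbouring ages was below 0.08 on the log2 scale in either direction for the copies, with edgeR adjusted p from 0.822 to 0.998. The libraries of the 5 ages overlapped throughout: the lowest at 30 months, 48147 CPM, lay below the highest at 2 months, 55414 CPM.

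A straight line on age passed the test for mir-26b and 1 mir-26a copy, close to the threshold. The slope was 0.083 ± 0.030 log2 units per 12 months for mir-26b (SE, edgeR adjusted p = 0.0352), 0.065 ± 0.025 for mir-26a-1 (adjusted p = 0.0462) and 0.063 ± 0.025 for mir-26a-2 (adjusted p = 0.0516). The copies share their reads, so one lying under the threshold and the other over it is no difference between them. Of all tested precursors 35.5% passed this test, 19.5% with a rise and 16% with a fall. With DESeq2 none of the 3 slopes passed, and leaving out 1 library ended the call of mir-26b in 13 of 25 refits (0.058 to 0.085) and that of mir-26a-1 in 18 of 25 (0.041 to 0.066). The summed mir-26a had a slope of 0.052 ± 0.024 (adjusted p = 0.0918) and the summed family one of 0.055 ± 0.023 (adjusted p = 0.0670).

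The test for any difference among the 5 ages passed for none of the 3 (edgeR adjusted p = 0.0790 for mir-26b, 0.288 for mir-26a-1 and 0.295 for mir-26a-2), against 32.7% of all precursors. Before adjustment mir-26b alone was under 0.05. The test for any difference passed for mir-26b in 2 of 9 other settings. It also passed in 7 of 25 refits without 1 library (edgeR adjusted p from 0.0141 to 0.228). The age means left a straight line by at most 0.07 on the log2 scale for mir-26b (adjusted p = 0.448) and 0.03 for each mir-26a copy (adjusted p from 0.955 to 0.967), where 7.06% of all precursors passed. With lane as a covariate mir-26b passed both, with adjusted p = 6.96e-04 for any difference and 0.0398 for the departure from a line.

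The share of mir-26b within the family does not depend on the scaling of the libraries. It averaged 5.46 ± 0.342% of the reads of the 3 precursors at 2 months, 6.10 ± 0.429% at 9 months, 6.06 ± 0.344% at 15 months, 5.78 ± 0.294% at 24 months and 5.86 ± 0.317% at 30 months (SD, n = 5 each). At 30 months the libraries had 5.83, 5.98, 5.35, 5.92 and 6.20%, and at 2 months 5.76, 4.95, 5.74, 5.57 and 5.29%. The groups overlapped, although 4 of 5 libraries at 30 months lay above all of 2 months. The log2 ratio of mir-26b to the summed mir-26a was 0.11 higher at 30 months (95% interval -0.03 to 0.25, exact two-sided permutation test, n = 5 each, p = 0.0952, adjusted p = 0.190 over 4 ratios). So a larger change of mir-26b than of mir-26a was not shown, and the smallest p that 5 against 5 libraries allow is 0.00794. Within lanes the difference was 0.11 in lane 3, 0.02 in lane 5, 0.11 in lane 6 and 0.02 in lane 7.

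**Figure D4:**
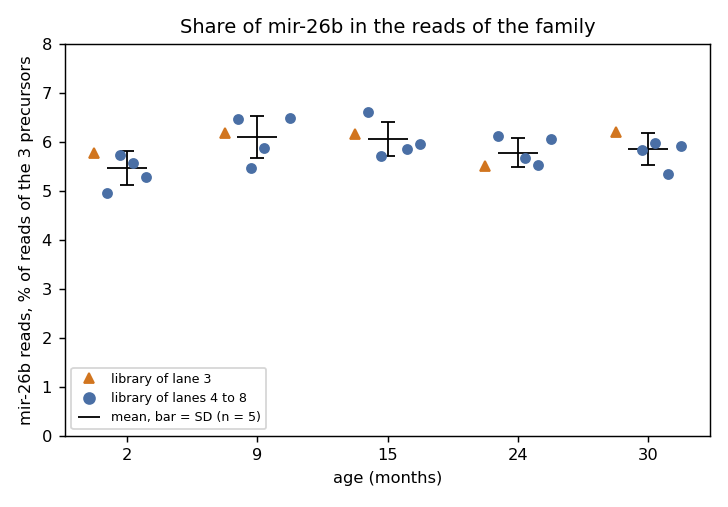
Reads of mir-26b as a percentage of the reads of the 3 miR-26 precursors (y axis, from 0) against age in months, 1 point per library, triangles for lane 3, with the mean and SD of 5 libraries. The mean is lowest at 2 months (5.46%) and highest at 9 months (6.10%), and the libraries of all ages overlap.

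Against families of similar kind, the family was set as a ratio within each library. mir-101a and mir-101b, of a family that like miR-26 is known to target Ezh2, were higher in the oldest mice. mir-101a averaged 7827 ± 135 CPM at 30 months and 5993 ± 247 CPM at 2 months (SD, n = 5 each), a log2 fold change of 0.39 ± 0.05 (SE, edgeR adjusted p = 1.51e-06). mir-101b had a log2 fold change of 0.33 ± 0.04 (adjusted p = 4.94e-06). A further precursor, mir-101c, averaged 1.44 CPM over all libraries, did not pass (0.14 ± 0.34, adjusted p = 0.753) and was left out of the sum. The ratio of summed miR-26 to summed mir-101a and mir-101b was 5.28, 5.79, 6.71, 6.20 and 6.46 in the 30-month libraries and 7.92, 8.09, 5.95, 6.59 and 7.33 in the 2-month libraries. Of the 30-month libraries 2 lay below all of 2 months, and of the 2-month libraries 3 lay above all of 30 months, so the groups overlapped. The log2 ratio at 30 months differed from that at 2 months by -0.23 (95% interval -0.48 to 0.03, exact permutation test, n = 5 each, p = 0.0635, adjusted p = 0.190). It was lower at 30 months within each of the 4 lanes, with differences of -0.29 in lane 3, -0.17 in lane 5, -0.19 in lane 6 and -0.13 in lane 7.

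The ratio of summed miR-26 to the summed miR-30 family, another large family of the brain, averaged 0.682 ± 0.0719 at 30 months and 0.641 ± 0.0762 at 2 months (SD, n = 5 each). The log2 ratios differed by 0.09 (95% interval -0.18 to 0.36, exact permutation test, p = 0.405, adjusted p = 0.405). A further precursor, mir-30f, averaged 8928 CPM over all libraries, did not pass (0.03 ± 0.05, edgeR adjusted p = 0.600) and was left out of the list and the sum. Of the 6 listed miR-30 precursors 2 fell, mir-30b (-0.27 ± 0.09, edgeR adjusted p = 0.0257) and mir-30c-1 (-0.23 ± 0.09, adjusted p = 0.0476), and 0 rose, where 17.9% of all precursors fell. The other copy of miR-30c, mir-30c-2, lay just over the threshold (-0.23 ± 0.09, adjusted p = 0.0529). Under the 3 other scalings 3 fell and 0 rose. With no filter on low counts only 1 fell, as mir-30c-1 lost its call, which it also did in 3 of 25 refits without 1 library.

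A list of 13 miRNA precursors was chosen because the miR-26 host genes act with REST. Their genes are listed as carrying REST sites, which was not checked here. Of the 13, 2 rose, 4 fell and 7 did not pass at 30 over 2 months. Of all precursors 19.1% rose and 17.9% fell. The 7 include the copies of miR-124 and of miR-9, which are not separate measurements. The median log2 fold change of the 13 was 0.09, the value of the copy mir-9-3, against 0.05 over all 425 precursors. mir-212, induced by neuronal activity, averaged 639.99 ± 29.3 CPM at 30 months and 889.6 ± 75.3 CPM at 2 months (SD, n = 5 each), a log2 fold change of -0.48 ± 0.06 (SE, edgeR adjusted p = 3.90e-06). Its neighbour mir-132 fell by 0.34 on the log2 scale (adjusted p = 9.77e-05), and mir-153 and mir-135b were the other falls. The call of mir-135b was lost with no filter, in a fit of the 2 ages alone and in 4 of 25 refits without 1 library. The rises were mir-29a (0.25 ± 0.07, adjusted p = 0.0105) and mir-29b-1 (0.20 ± 0.06, adjusted p = 0.0180). Both were lost under upper-quartile scaling, in a fit of the 2 ages alone and in 4 and 16 of 25 refits without 1 library. The rise of mir-29b-1 was also lost with library totals and without lane 3. mir-124-1, the leading neuronal miRNA, lay at 0.10 ± 0.05 (adjusted p = 0.126).

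Of the 4 other precursors known to target Ezh2, the 2 of miR-101 rose and the 2 of miR-138, a miRNA of dendritic spines, fell, with a median of 0.08. mir-138-2 lay at -0.19 ± 0.06 (adjusted p = 0.00941) and mir-138-1 at -0.18 ± 0.06 (adjusted p = 0.0171). These 4 calls were made under all 4 scalings. Set beside them, mir-26b lay at 0.24 in the same comparison. The more abundant mir-26a-1 (0.14, edgeR adjusted p = 0.121) and mir-26a-2 (0.13, adjusted p = 0.134) did not pass. Neither did the summed family (0.12, adjusted p = 0.163).

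Over 14 precursors of other conserved families, listed as lying in introns of protein-coding genes, which was not checked here (miR-30, miR-103, miR-15b with miR-16, and miR-23b with miR-27b), 4 rose, 2 fell and 8 did not pass, with a median of 0.11. As 36.9% of all precursors passed in either direction, 6 of 14 is near the background. The 14 include copies of miR-103 and of miR-30c, which are not separate measurements. mir-103-1, of a family that acts on insulin signalling, rose to 2331 ± 123 CPM at 30 months against 2031 ± 58.2 CPM at 2 months (log2 fold change 0.20 ± 0.04, adjusted p = 0.00124). mir-103-2 gives the same mature miRNA and rose by 0.19 (adjusted p = 0.00140). mir-16-2 (0.20 ± 0.08, adjusted p = 0.0437) and mir-27b (0.27 ± 0.10, adjusted p = 0.0420) were the other rises. Both lost their call under RLE and upper-quartile scaling, where 2 of the 14 rose and 3 fell. Leaving out 1 library ended it in 17 and 16 of 25 refits. A stricter filter and a fit of the 2 ages alone also ended both, and DESeq2 that of mir-16-2. mir-16-1, a copy of miR-16 outside the list, averaged 4683 CPM over all libraries against 4650 CPM for mir-16-2. It also lay at 0.20, so this rise is not assigned to 1 locus.

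The precursors whose profile over the 25 libraries lay nearest to the summed mir-26a were mir-16-2, mir-16-1, mir-15a, mir-330 and mir-92b. Nearness was the root mean square difference of log2 CPM, each centred on its own mean, among precursors averaging at least 100 CPM. It was 0.064 for mir-16-2 and 0.091 for mir-92b. For mir-26b they were mir-29c (0.084), mir-16-2, mir-16-1, mir-29a and mir-221 (0.094). With lane means removed, 4 of the 5 nearest to mir-26a and 2 of the 5 nearest to mir-26b were found again. The libraries share lane, depth and scaling, so nearness describes these profiles and no more. The log2 fold changes of 30 over 2 months were 0.20 for mir-16-2 and mir-16-1, 0.27 for mir-15a, 0.12 for mir-330, 0.09 for mir-92b, 0.20 for mir-29c, 0.25 for mir-29a and 0.17 for mir-221. mir-92b did not pass (edgeR adjusted p = 0.279). Of the others, mir-15a passed in every setting tried. mir-16-1, mir-16-2, mir-330, mir-29c and mir-221 lost their call under RLE and upper-quartile scaling, a stricter filter and DESeq2. They also lost it in a fit of the 2 ages alone, as did mir-29a, which lost it under upper-quartile scaling too. Library totals ended it for mir-16-1, mir-29c and mir-330, and mir-330 kept it only with lane as a covariate. Without 1 library the call ended in 17 of 25 refits for mir-16-1 and mir-16-2, 19 for mir-330, 14 for mir-29c, 13 for mir-221 and 4 for mir-29a.

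Markers of cell types also differed between 30 and 2 months in these hemispheres. Of 7 neuron-enriched precursors, which include the miR-124 and miR-138 copies above, 4 fell and 0 rose, and their sum lay between 39011 and 47517 CPM at 30 months and between 44486 and 54956 CPM at 2 months. The falls were the copies of miR-128 (mir-128-1 at -0.37 and mir-128-2 at -0.35) and of miR-138. The copies of miR-124 lay from 0.09 to 0.10 and did not pass. Copies of a miRNA are not separate measurements. All 3 oligodendrocyte precursors rose, with sums of 3612 to 4554 CPM at 30 months and 2487 to 2913 CPM at 2 months. Of 5 microglia and immune precursors 3 rose and 1 fell, with sums of 1158 to 1333 CPM at 30 months and 1242 to 1352 CPM at 2 months. Of 5 choroid plexus and ependyma precursors 2 rose, with sums of 9153 to 10198 CPM at 30 months and 7716 to 9185 CPM at 2 months. Under upper-quartile scaling mir-142a, an immune precursor, and mir-34c, of ciliated cells, lost their rise, which left 2 immune and 1 choroid plexus or ependyma precursor, and leaving out 1 library ended the rise of mir-34c in 6 of 25 refits and that of mir-142a in 2. None of 4 erythroid and 3 endothelial and mural precursors passed, except mir-144 in a fit of the 2 ages alone and in 1 of 25 refits without 1 library. Over all precursors 19.1% rose and 17.9% fell. The part of these markers in the values of mir-26b was not tested.

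**Figure D5:**
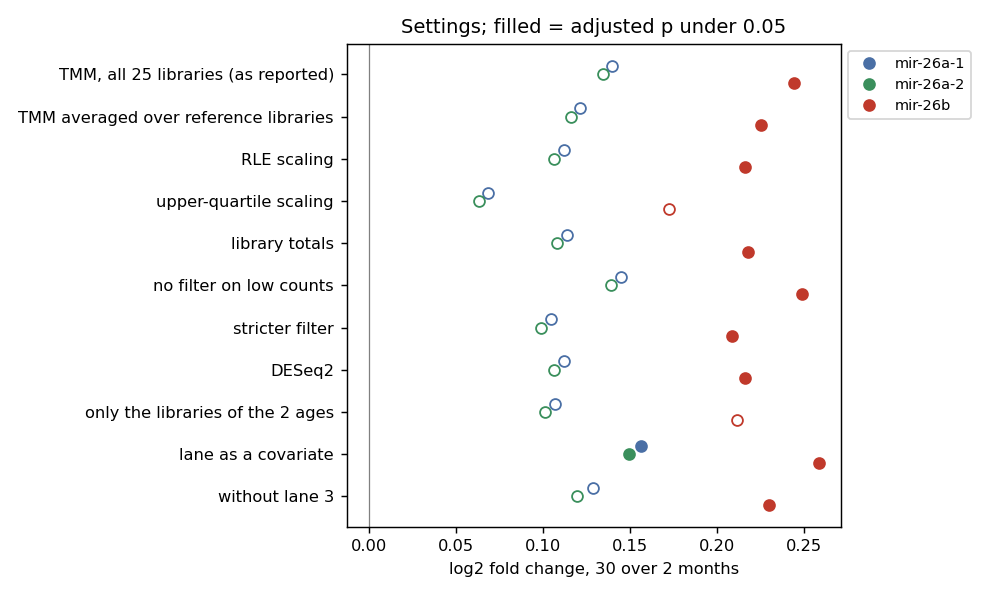
Log2 fold change of 30 over 2 months (x axis) of the 3 miR-26 precursors under the reported fit and 10 other settings, filled where the adjusted p was under 0.05. All values are above 0; mir-26b is open only for upper-quartile factors (0.17) and for a fit of the 2 ages alone (0.21), and the mir-26a copies are filled only with lane as a covariate (0.16 and 0.15).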

How the data were processed

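The deposited values are raw read counts of miRNA precursors in 25 small RNA libraries (TruSeq, per the labels). SAMtools 1.3.1-9, Trimmomatic 0.36 and bcl2fastq 1.8.4 are named in the submitters' processing notes. Aligner, counter, build, and treatment of reads with several matches were not given in the sources used here. Ages came from the labels and lanes from the column names; replicate numbers follow accession order.

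Counts were tested in R 4.3.3 with edgeR 4.0.16 (filterByExpr, TMM factors from 0.952 to 1.04, quasi-likelihood F tests, a mean per age over all libraries), checked on simulated data, with Benjamini-Hochberg adjustment over 425 precursors at 0.05. SE is the log2 fold change over the square root of F. DESeq2 1.42.0 was an alternative. The chi-square per degree of freedom between replicates lay between 19.6 and 304 over 50 pairs, so none was a library deposited again. Ratios of raw counts were tested by exact permutation over libraries. Figures used Python 3.11.15 and matplotlib 3.10.9.

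The members, lists and tests were chosen with earlier results of these data known. The named precursors are the members, the 5 nearest profiles of each, and from each list up to 4 calls with the smallest p and 1 precursor that did not pass.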

Additional observations from a re-analysis of the deposited data

How the results depend on the processing

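No result changed direction while called. mir-26b between 30 and 2 months lost its call for upper-quartile factors (0.17) and for a fit of the 2 ages alone (0.21), and without 1 library it ranged from 0.16 to 0.26. With lane as a covariate calls were gained by mir-26a-1 (0.16), mir-26a-2 (0.15), the summed mir-26a (0.12) and the summed family (0.14), which ranged without 1 library from 0.063 to 0.15, 0.058 to 0.14, 0.069 to 0.15 and 0.077 to 0.16. The slope of mir-26b lost its call under RLE scaling (0.071), upper-quartile scaling (0.065), no filter (0.085), the stricter filter of 10 CPM in 5 libraries (0.068) and DESeq2 (0.071). That of mir-26a-1 was lost under the same 5 (0.054, 0.048, 0.068, 0.051 and 0.054), without lane 3 (0.059) and with TMM factors averaged over all reference libraries (0.057), a setting chosen after seeing the data. The slope of mir-26a-2 gained a call with library totals (0.059) and lane (0.060), as did the summed mir-26a (0.060 and 0.051) and the summed family (0.061 and 0.054). The family slope also gained one with the stricter filter (0.064) and, added after seeing the data, with the factors of the separate rows (0.065). Without 1 library the slopes ranged from 0.058 to 0.085 for mir-26b, 0.041 to 0.066 for mir-26a-1, 0.039 to 0.064 for mir-26a-2, 0.041 to 0.067 for the summed mir-26a and 0.043 to 0.066 for the summed family. The cause of these changes was not tested. The 4 ratios passed in none of their 10 refits without 1 library, nor as a difference of medians. Without lane 3 none passed either, but with so few libraries 1 ratio alone could not have passed there after adjustment. The differences with lane means subtracted had no test. The number of precursors called between 30 and 2 months lay between 119 and 172, against 157. No paired analysis was possible because the labels number each animal once and pair none across ages; lane, from the column names, was fitted as the covariate above.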
